A study of Mus musculus with 25 samples.

Results

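Homeostatic microglia genes are transcripts that mark resting, brain-resident microglia, and 9 of them were followed here: Fcrls, Olfml3, Mpeg1, Ly86, P2ry12, Tmem119, Cx3cr1, Csf1r and Siglech. They were chosen by symbol, by a rule that uses no measured value but was written with earlier results of these data known, and all 9 were found among the 24421 genes of the count files. All 9 also passed the filter on low counts that left 15912 genes for testing. Hippocampal RNA was sequenced from mice with 1 disrupted copy of Scn1a (Scn1a+/-), a model of Dravet syndrome, an infantile epilepsy, and from wild-type mice, in 25 libraries that fall into 9 groups. In [129S6/SvEvTac x C57BL/6]F1 mice (F1) at postnatal day 24 (P24) there were 3 libraries of Scn1a+/- mice labelled with seizures, 2 of Scn1a+/- mice labelled without seizures and 3 of wild-type mice. In 129S6/SvEvTac mice (129S6) at P24 there were 3 libraries labelled Scn1a+/- and 3 labelled wild type. At postnatal day 14 (P14) there were 3 Scn1a+/- and 3 wild-type libraries in F1, and 3 Scn1a+/- and 2 wild-type libraries in 129S6. All groups other than the seizure group are labelled without seizures. Each library is a pool, of 3 to 4 mice in the seizure group and 12 to 16 mice elsewhere, and how the pools of a group differ in litter or day is not stated, so p-values measure the spread between pools, which may be technical.

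Microglia are the resident macrophages of the brain. Their survival depends on the receptor Csf1r, which binds the ligands Csf1 and Il34, and their homeostatic state is maintained by TGF-beta signalling and by transcription factors such as PU.1 (Spi1) and Sall1. Cx3cr1 binds fractalkine (Cx3cl1) on neurons, P2ry12 is an ADP receptor that guides the processes of microglia towards injury, and Tmem119 is a surface protein used to tell microglia from other macrophages. Siglech is a sialic acid-binding lectin that signals through an adaptor, Fcrls is a scavenger receptor of the Fc receptor-like family, Olfml3 is a secreted olfactomedin-like protein, Mpeg1 is the pore-forming protein perforin-2 of macrophages, and Ly86 (MD-1) is the partner of the Toll-like receptor homologue Cd180. In whole tissue, fewer cells of a type and less RNA per cell cannot be told apart.

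Totals ran from 7436442 to 25520050 counts per library. Libraries of the seizure group differed from each other by a chi-square per degree of freedom of 18.3 to 40.2 over genes, against 8.59 for the P24 F1 Scn1a+/- pair and 2.42 to 7.37 for all other pairs within a group. Scn1a, the targeted gene, averaged 79.9 ± 10.3 CPM (read counts scaled to the effective size of each library) in the seizure group (SD, n = 3), 104 ± 15.9 in P24 F1 Scn1a+/- (n = 2) and 127 ± 2.79 in P24 F1 wild type (n = 3). In 129S6 at P24 it went against the labels, at 140 ± 4.96 CPM in libraries labelled Scn1a+/- and 110 ± 0.74 CPM in libraries labelled wild type (SD, n = 3 each), and the names of the deposited files give these 6 libraries the opposite genotype. The word labelled stands before their genotypes for this reason, and comparisons of strain and age average both genotypes, so that their main values do not turn on this label. The values given for wild-type groups alone do.

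The promoters of 3 of the genes are shown because their capitals mark the letters GAGGAA or AGGAAG on either strand, overlapping parts of the purine-rich core that PU.1 is known to bind. RefSeq's table of promoters for GRCm38.p6 (the mm10 assembly) held 7 of the 9 genes, and the 250 bases before the start that it gives for each were searched. Olfml3 (chr3:103738002-103738251, minus strand) and Ly86 (chr13:37345095-37345344, plus strand), which differed between strains, and P2ry12 (chr3:59262986-59263235, minus strand), for which no strain difference was called, held 1 AGGAAG each. All are written 5′ to 3′ on the strand of the gene.
Olfml3: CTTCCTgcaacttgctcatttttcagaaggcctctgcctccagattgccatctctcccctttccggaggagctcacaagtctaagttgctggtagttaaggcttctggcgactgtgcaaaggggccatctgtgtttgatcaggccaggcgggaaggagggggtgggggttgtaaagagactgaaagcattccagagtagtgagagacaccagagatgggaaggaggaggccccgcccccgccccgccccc
Ly86: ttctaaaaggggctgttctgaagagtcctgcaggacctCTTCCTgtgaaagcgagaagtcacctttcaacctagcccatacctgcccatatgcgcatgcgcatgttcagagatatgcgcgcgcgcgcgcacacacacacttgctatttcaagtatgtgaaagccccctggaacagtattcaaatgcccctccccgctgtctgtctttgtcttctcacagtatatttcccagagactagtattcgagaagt
P2ry12: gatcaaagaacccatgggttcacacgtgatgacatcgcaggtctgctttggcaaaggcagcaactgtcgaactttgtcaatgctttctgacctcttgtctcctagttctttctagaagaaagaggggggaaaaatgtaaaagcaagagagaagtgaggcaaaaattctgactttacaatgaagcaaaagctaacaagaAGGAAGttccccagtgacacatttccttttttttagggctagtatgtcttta
Of the 7 windows, 4 held either motif, the other being that of Fcrls, against 39.2% of 32851 promoters of this length. The table's start for Fcrls lies inside the span of the gene given by RefSeq, so that 241 of its 250 bases are not upstream of that span, and for Siglech 30 bases are not. GAGGAA alone was in 23.3% and AGGAAG alone in 29.5% of all promoters. The letters are a description of these windows and not a measure of binding.

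**Figure D1:**
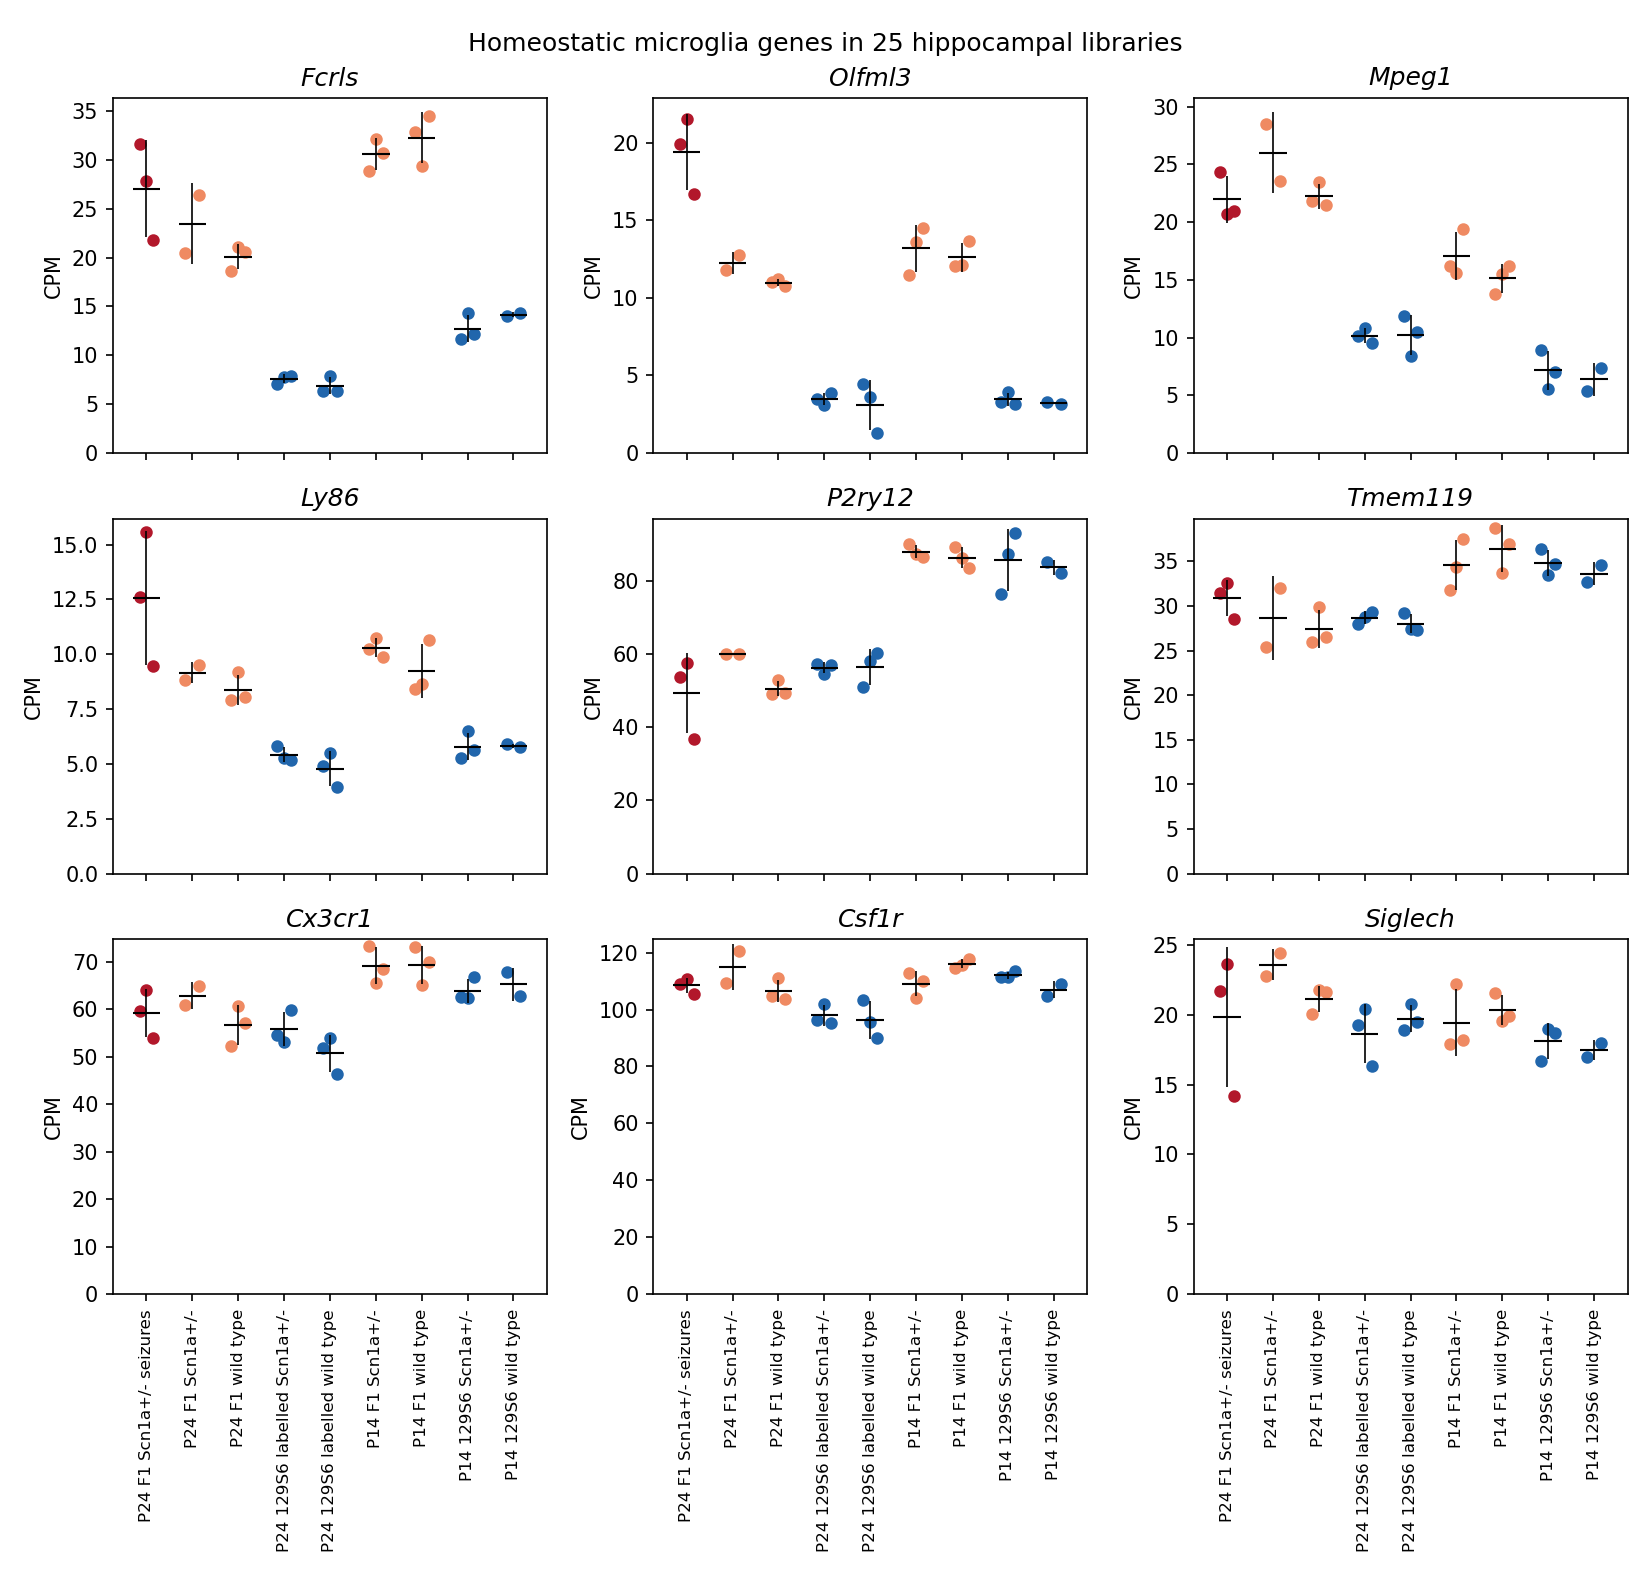
CPM (vertical axes, from 0) of the 9 genes in every library (points; dark red, seizure group; orange, other F1; blue, 129S6), with the mean (horizontal line) and SD (vertical line) of each of the 9 groups. The F1 points of Fcrls, Olfml3, Mpeg1 and Ly86 lie above the 129S6 points of the same age, and P2ry12 lies lower at P24 than at P14 in both strains.

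Levels can be compared between genes only per length. Per kilobase of exon (GENCODE vM39, 8 of the genes matched by symbol), P24 F1 wild-type libraries averaged 15.7 ± 0.64 CPM per kilobase for P2ry12, 14.5 ± 0.53 for Csf1r, 12.2 ± 0.90 for Cx3cr1 and 8.41 ± 0.65 for Tmem119 (SD, n = 3). Mpeg1 followed at 5.09 ± 0.24, Siglech at 4.32 ± 0.19, Ly86 at 2.03 ± 0.17 and Olfml3 at 1.78 ± 0.035 CPM per kilobase. The means of P2ry12 and Csf1r lay within 2 SD of each other by the SD of P2ry12, but not by that of Csf1r. P2ry12 lies inside the span of Med12l on the mm10 map (Med12l, 62.4 CPM on average), and the kit did not mark strand. Whether exons of these genes overlap, or whether reads of one were counted for the other, was not tested. The 9 genes summed to 308 to 374 CPM in the seizure group, 348 to 374 in P24 F1 Scn1a+/- and 312 to 341 in P24 F1 wild type, and to 266 to 286 CPM over the P24 129S6 libraries. The sums were 386 to 404 CPM in F1 and 333 to 355 CPM in 129S6 at P14. Over all libraries 10 markers of border macrophages (Stab1, Mrc1, Cd163, Lyve1 and others) summed to 24.7 to 47.0 CPM and 10 markers of blood leukocytes to 1.08 to 2.69 CPM. Most of the border macrophage sum was Stab1. It averaged 23.6 of 33.7 CPM in P24 F1 wild type and 24.8 of 45.9 CPM in P14 129S6 wild type.

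The comparison of strains separated the genes into 2 sets. Fcrls, Olfml3, Mpeg1 and Ly86 were higher in F1 than in 129S6 at both ages, with no overlap between the libraries of the strains. P2ry12, Tmem119, Cx3cr1 and Siglech passed the test at neither age, and Csf1r passed it at P24 only. Calls rest on edgeR's quasi-likelihood test, at a threshold of 0.05 on the Benjamini-Hochberg adjusted p over all 15912 genes. At P14, 4 of the 9 genes were called, all higher in F1, where 3.7% of all genes were called and 2.04% were called higher. At P24, 5 were called, all higher, against 6.33% and 3.46% of all genes. Only 1.41% of all genes, 225 in number, were called higher at both ages. What share of all genes lacked overlap was not computed for the strain and age comparisons. Lack of overlap there only describes the libraries.

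Olfml3 (chr3:103735394-103738001) had the largest difference of the 9. At P14 it had 11.5, 13.6 and 14.5 CPM in F1 Scn1a+/- and 12.1, 12.1 and 13.7 CPM in F1 wild-type libraries, against 3.29, 3.95 and 3.18 CPM in 129S6 Scn1a+/- and 3.26 and 3.16 CPM in 129S6 wild-type libraries. Every F1 library lay above every 129S6 library. The log2 fold change, F1 minus 129S6, was 1.95 ± 0.14 (SE), a 3.87-fold difference (edgeR adjusted p = 2.49e-11). At P24 it had 11.8 and 12.8 CPM in F1 Scn1a+/- and 11.0, 11.2 and 10.8 CPM in F1 wild type, against 3.46, 3.06 and 3.84 CPM in 129S6 labelled Scn1a+/- and 4.42, 3.61 and 1.32 CPM in 129S6 labelled wild type. The library at 1.32 CPM was the lowest of the 25, and the strains again did not overlap. The P24 difference was 1.78 ± 0.14 (adjusted p = 5.48e-11).

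Fcrls (chr3:87250736-87263765) had 28.9, 32.1 and 30.7 CPM in P14 F1 Scn1a+/- and 32.9, 29.4 and 34.5 CPM in P14 F1 wild type, against 11.7, 14.3 and 12.2 CPM in P14 129S6 Scn1a+/- and 14.0 and 14.3 CPM in P14 129S6 wild type. The lowest F1 library had more than the highest 129S6 library at both ages. At P24 it had 20.5 and 26.4 CPM in F1 Scn1a+/- and 18.6, 21.0 and 20.6 CPM in F1 wild type, against 7.10, 7.81 and 7.91 CPM in 129S6 labelled Scn1a+/- and 6.39, 7.86 and 6.38 CPM in 129S6 labelled wild type. The strain difference was 1.22 ± 0.093 at P14 (adjusted p = 4.36e-11) and 1.57 ± 0.098 at P24 (adjusted p = 2.4e-13), a fold of 2.34 and 2.98. The difference between these 2 effects was 0.35 ± 0.14 (unadjusted p = 0.0148, adjusted p = 0.552 by edgeR) and did not pass the threshold.

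Mpeg1 (chr19:12460770-12465285) had 13.7 to 19.4 CPM in the 6 F1 libraries at P14 (median 15.9), against 5.33 to 8.94 CPM in the 5 129S6 libraries (median 7.03). At P24 it had 21.4 to 28.5 CPM in F1 without seizures (median 23.4, n = 5) and 8.38 to 11.8 CPM in 129S6 (median 10.3, n = 6). Its strain difference was 1.26 ± 0.12 at P14 and 1.25 ± 0.10 at P24 (adjusted p = 2.17e-09 and 1.44e-10). Ly86 (chr13:37345345-37419036) had 8.41 to 10.8 CPM in F1 at P14 (median 10.1), against 5.27 to 6.48 CPM in 129S6 (median 5.75). At P24 it had 7.92 to 9.49 CPM in F1 (median 8.83) and 3.95 to 5.83 CPM in 129S6 (median 5.23). Its difference was 0.75 ± 0.12 at P14 and 0.77 ± 0.12 at P24 (adjusted p = 0.000141 and 5.36e-05). With the P14 wild-type groups alone, the P14 difference of Ly86 was 0.67 and no longer passed (adjusted p = 0.0683).

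The other 5 genes had strain differences of 0.039 to 0.15 at P14 (adjusted p = 0.496 to 0.9). At P24, P2ry12 differed by −0.034 ± 0.075 and Tmem119 by −0.010 ± 0.067 (adjusted p = 0.851 and 0.954). Cx3cr1 differed by 0.16 ± 0.059 (adjusted p = 0.0962) and Siglech by 0.22 ± 0.094 (adjusted p = 0.171), and both passed when the seizure libraries were left out of the fit (adjusted p = 0.0212 for Cx3cr1 and 0.0275 for Siglech). Csf1r had 104 to 121 CPM in the 5 F1 libraries and 89.9 to 103 CPM in the 6 129S6 libraries at P24, without overlap. Its difference of 0.19 ± 0.046 passed (adjusted p = 0.00904) but did not between the groups labelled wild type alone, of which the 129S6 group has the doubted label (0.14, adjusted p = 0.21), or without the P24 F1 Scn1a+/- library at 121 CPM (0.16, adjusted p = 0.119). The test for a strain effect that differed between ages called 0 of 9 genes by edgeR and by DESeq2, while 0.00628% of all genes were called. Fcrls and Csf1r, 2 of the 9, had an unadjusted edgeR p under 0.05, as did 1295 of all 15912 genes. The lack of calls does not show that the strain effects were equal at both ages.

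**Figure D2:**
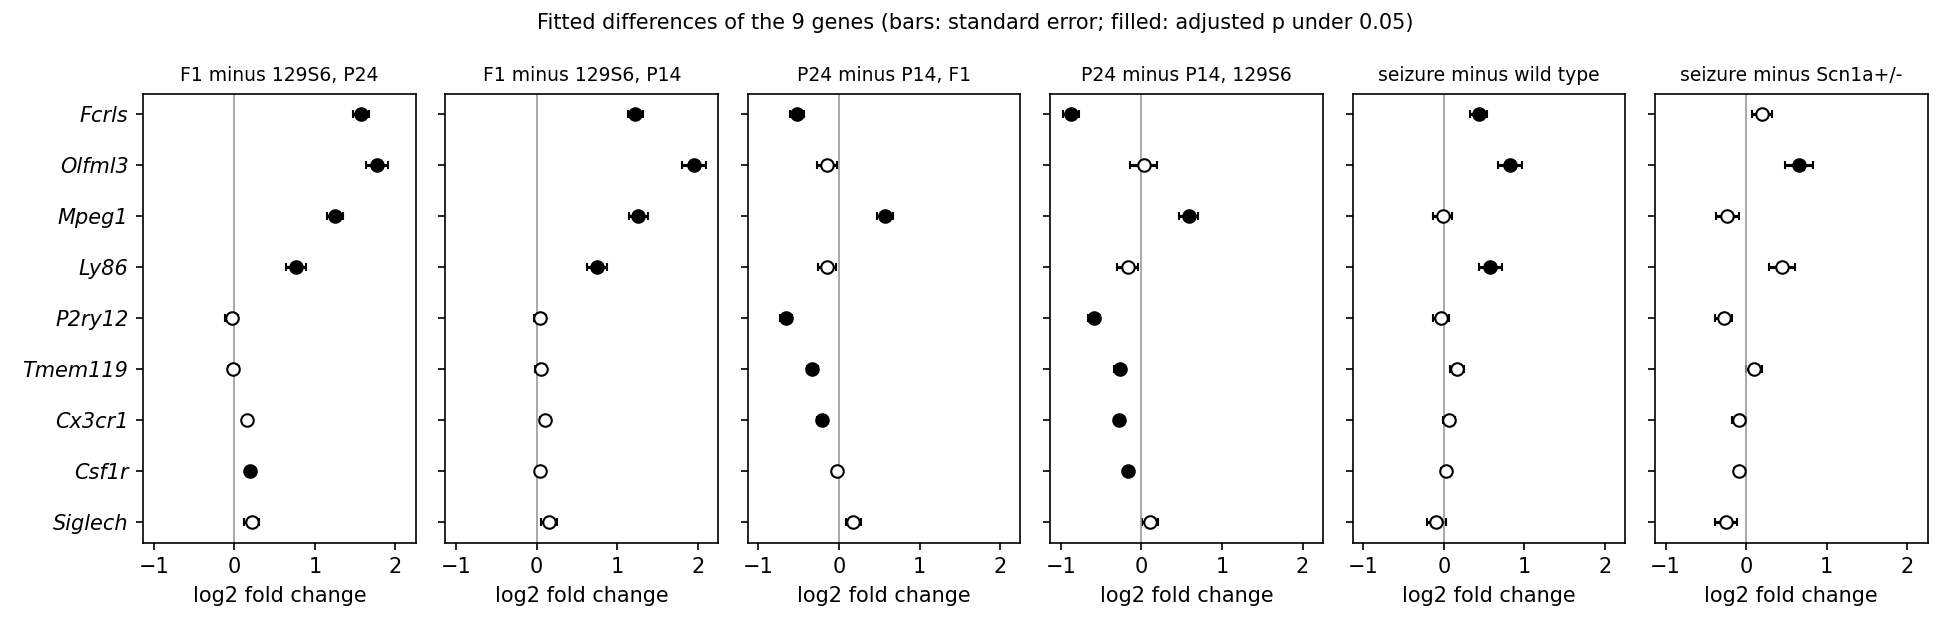
Log2 fold changes of the 9 genes (horizontal axes; bars, SE) in 6 comparisons, with filled points for an adjusted p under 0.05. Fcrls, Olfml3, Mpeg1 and Ly86 stand between 0.75 and 1.95 in F1 minus 129S6, while the other 5 genes stand between −0.034 and 0.22.

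Levels relative to the mean log2 CPM of the 5 other genes in the same library are given as a description. Both sets were chosen by the strain comparison, so a separation of the strains in this ratio was fixed by that choice. The ratio of Fcrls on the log2 scale was −0.88 to −0.67 in F1 and −2.13 to −1.82 in 129S6 at P14, and −1.19 to −0.96 in F1 without seizures and −2.73 to −2.44 in 129S6 at P24. For Olfml3 it was −2.06 to −1.94 in F1 without seizures and −4.87 to −3.25 in 129S6 at P24. For Mpeg1 it was −1.13 to −0.72 and −2.39 to −1.86 in the same groups, and for Ly86 −2.43 to −2.34 and −3.38 to −2.88. The mean log2 CPM of the 5 other genes was 5.42 to 5.69 in P24 F1 without seizures and 5.40 to 5.48 in P24 129S6 libraries.

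**Figure D3:**
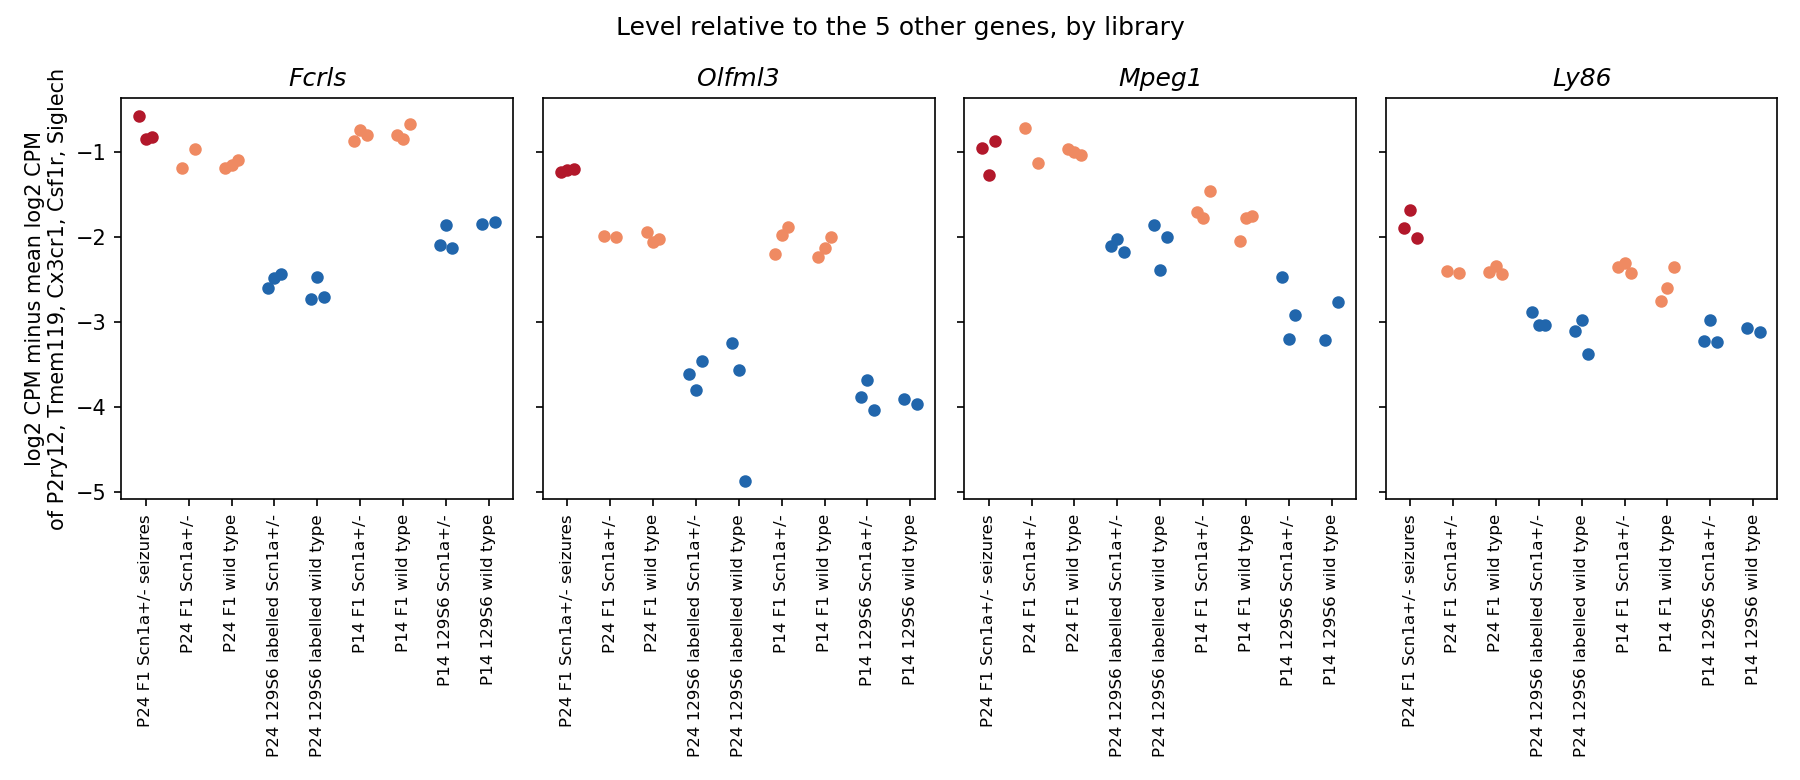
Log2 CPM of Fcrls, Olfml3, Mpeg1 and Ly86 minus the mean log2 CPM of P2ry12, Tmem119, Cx3cr1, Csf1r and Siglech (vertical axis) in every library (points; dark red, seizure group; orange, other F1; blue, 129S6). The 3 seizure libraries of Olfml3, at −1.24 to −1.20, lie above all other F1 libraries.

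The reads of both strains were counted on mm10, which is the assembly of C57BL/6J, and the part that mapping of 129S6 sequence plays in these differences was not tested. Among the 225 genes called higher in F1 at both ages, ordered by fold change at P24, Olfml3 was number 36, Fcrls 42, Mpeg1 52 and Ly86 84. Of the tested genes within 1000000 bases on the RefSeq map, none of 22 around Fcrls and none of 13 around Mpeg1 was called in the same direction at both ages. Around Olfml3, 2 of 21 were, with Phtf1 higher (0.26 ± 0.054 at P24, adjusted p = 0.00177) and Sycp1 lower (−1.01 ± 0.17, adjusted p = 0.000181). Around Ly86, 1 of 10 was, Bmp6, which was lower in F1 (−0.58 ± 0.15 at P24, adjusted p = 0.0161). Around the genes outside the strain-dependent set, 1 of 27 near Csf1r (1500015A07Rik) and 1 of 9 near Siglech (Luzp2) were lower at both ages, and none of 10 near P2ry12, 29 near Tmem119 and 26 near Cx3cr1 was called in the same direction at both.

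Other microglial genes were read beside these. Of 20 further homeostatic genes, 4 were higher and 0 lower in F1 at P14, and 5 were higher and 0 lower at P24, with a median of 0.18 at P24 against −0.009 for all genes. These are 20.0% and 25.0% of the list, against 3.7% and 6.33% of all genes. Slc2a5, a fructose transporter, differed by 2.04 ± 0.29 at P14 and 1.27 ± 0.27 at P24 (edgeR adjusted p = 1.31e-05 and 0.002). Of 14 complement and phagocytic genes, 1 was higher and 1 lower at P14, and 6 were higher and 1 lower at P24, among them Trem2 (0.55 ± 0.11) and C1qc (0.40 ± 0.070). None of 12 microglial transcription factors was called at either age by edgeR, with Irf5 nearest at P24 (0.49 ± 0.15, adjusted p = 0.0505). Among 13 genes of ligands and partners, 0 were called at P14, and 1 was higher and 2 were lower in F1 at P24. Cd180, whose product pairs with that of Ly86, was higher (0.82 ± 0.20, adjusted p = 0.0076). Tgfb2 (−0.339 ± 0.076, adjusted p = 0.00425) and Nrros (−0.405 ± 0.097, adjusted p = 0.00737) were lower. Cd180 averaged 3.63 CPM in P24 F1 Scn1a+/- and 1.885 CPM in P24 F1 wild type. It averaged 1.82 CPM in P24 129S6 labelled Scn1a+/-, which overlapped F1 wild type, and 1.186 CPM in P24 129S6 labelled wild type. Of 9 border macrophage markers tested, 0 were higher and F13a1 lower at P14, and Stab1 was higher and 0 lower at P24.

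Age moved the genes in different directions. Between P14 and P24, P2ry12, Fcrls, Cx3cr1 and Tmem119 fell in both strains, Mpeg1 rose in both, and Csf1r fell in 129S6. Olfml3, Ly86 and Siglech passed in neither strain. In F1, 1 of the 9 was called higher and 4 lower, where 38.4% of all genes were called, 19.0% higher and 19.4% lower. In 129S6, 1 was called higher and 5 lower, against 34.3%, 17.3% and 17.1% of all genes.

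P2ry12 (chr3:59216271-59262985) had 49.1 to 60.0 CPM at P24 (median 52.8, n = 5) and 83.3 to 90.0 CPM at P14 (median 86.9, n = 6) in F1. In 129S6 it had 50.9 to 60.2 CPM at P24 (median 57.0, n = 6) and 76.5 to 93.1 CPM at P14 (median 85.0, n = 5). The ages did not overlap in either strain, and P24 minus P14 was −0.66 ± 0.075 in F1 (adjusted p = 1.46e-08) and −0.59 ± 0.074 in 129S6 (adjusted p = 1.17e-07). Tmem119 (chr5:113793729-113800396) had 25.4 to 32.0 CPM at P24 and 31.8 to 38.8 CPM at P14 in F1, with a slight overlap, and 27.4 to 29.3 CPM at P24 and 32.7 to 36.4 CPM at P14 in 129S6, with none. Its differences were −0.33 ± 0.067 in F1 and −0.27 ± 0.067 in 129S6 (adjusted p = 0.000192 and 0.00186). Cx3cr1 (chr9:120048683-120068296) had 52.3 to 64.9 CPM at P24 and 65.1 to 73.4 CPM at P14 in F1, and 46.5 to 59.9 CPM at P24 and 62.4 to 67.8 CPM at P14 in 129S6. The ages did not overlap, with differences of −0.21 ± 0.059 and −0.28 ± 0.059 (adjusted p = 0.00399 and 0.000384).

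Fcrls fell by 0.52 ± 0.087 on the log2 scale in F1 and by 0.88 ± 0.10 in 129S6 (adjusted p = 1.36e-05 and 5.22e-08). Mpeg1 rose by 0.57 ± 0.099 in F1 and 0.59 ± 0.12 in 129S6 (adjusted p = 2.17e-05 and 0.000205). In F1 it had 21.4 to 28.5 CPM at P24 and 13.7 to 19.4 CPM at P14, without overlap. In 129S6 its ranges were 8.38 to 11.8 CPM at P24 and 5.33 to 8.94 CPM at P14, and they met. Csf1r (chr18:61105572-61131139), a receptor tyrosine kinase, had 104 to 121 CPM at P24 and 104 to 118 CPM at P14 in F1, and 89.9 to 103 CPM at P24 and 105 to 114 CPM at P14 in 129S6. Its difference was −0.023 ± 0.046 in F1 (adjusted p = 0.733) and −0.17 ± 0.046 in 129S6 (adjusted p = 0.00392). Siglech (chr7:55768154-55779448) differed by 0.18 ± 0.096 in F1 and 0.11 ± 0.097 in 129S6 (adjusted p = 0.148 and 0.422), and Olfml3 by −0.15 ± 0.12 and 0.028 ± 0.17. Between the groups labelled wild type alone, of which the P24 group has the doubted label, the falls of Tmem119 (−0.26, adjusted p = 0.062) and Csf1r (−0.15, adjusted p = 0.138) in 129S6 no longer passed.

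Of the 20 further homeostatic genes, 1 rose and 7 fell with age in F1, and 0 rose and 7 fell in 129S6, with P2ry13 (−0.61 ± 0.12 in F1 and −0.55 ± 0.12 in 129S6) and Crybb1 (−0.65 ± 0.14 and −0.73 ± 0.15) in both strains. Calls in either direction made up 40.0% of the list in F1 and 35.0% in 129S6, close to the 38.4% and 34.3% of all genes. The 7 of 20 that fell in each strain stand beside 19.4% and 17.1% of all genes called lower. Other microglial lists moved otherwise. Among 14 complement and phagocytic genes, 6 rose and 0 fell in F1 (42.9%), and 3 rose and 2 fell in 129S6 (35.7%). The 13 activation genes tested had 3 rising and 3 falling in F1, and 4 rising and 3 falling in 129S6. The 12 microglial transcription factors had 2 rising and 2 falling in F1, and 2 rising and 0 falling in 129S6. The ligand Csf1 rose by 0.78 ± 0.073 in F1 and 0.59 ± 0.073 in 129S6 (adjusted p = 3.06e-10 and 1.17e-07), to 29.2 CPM at P24 in F1 against 17.1 CPM at P14. In F1 the other ligand of the receptor, Il34, fell by 0.23 ± 0.073 (adjusted p = 0.0106) and Cx3cl1 by 0.25 ± 0.096 (adjusted p = 0.0383). Smad3, a transducer of TGF-beta signals, rose by 0.64 ± 0.078 in F1 and 0.69 ± 0.079 in 129S6. Border macrophage markers fell too, 3 of 9 in F1 and 6 of 9 in 129S6 with none higher, among them Mrc1 in F1 (−0.92 ± 0.18) and Lyve1 in 129S6 (−1.11 ± 0.23). They summed, mostly through Stab1, to 27.5 to 35.6 CPM at P24 and 36.2 to 43.2 CPM at P14 in F1. In 129S6 they summed to 24.7 to 28.7 CPM at P24 and 41.2 to 47.0 CPM at P14. The part of border macrophages in the falls of the 9 genes was not tested. All 5 proliferation genes fell in both strains, with medians of −1.84 and −1.79. Markers of other cells moved as well. Of 6 oligodendrocyte markers 4 rose and 2 fell in each strain, and they summed to 13050 to 15000 CPM at P24 and 5390 to 7518 CPM at P14 in F1, and to 11920 to 13260 CPM at P24 and 5726 to 6463 CPM at P14 in 129S6. Of 6 astrocyte markers 4 fell in each strain, with Aqp4 at −0.70 ± 0.056 in F1, and they summed to 6141 to 7128 CPM at P24 and 7820 to 8196 CPM at P14 in F1, and to 6432 to 7024 CPM at P24 and 8058 to 8532 CPM at P14 in 129S6. Of 7 vascular markers 4 fell in F1 and 5 in 129S6, with 1 higher in each. The part of cell composition in the age differences was not tested.

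In the seizure group, Olfml3, Ly86 and Fcrls were higher than in P24 F1 wild type, and the other 6 genes did not pass. Of the 9 genes, 3 were called, all higher, where 22.5% of all genes were called and 12.4% were called higher. All 3 are among the genes with a strain difference. Against Scn1a+/- without seizures, 1 of the 9 was called, Olfml3, where 15.7% of all genes were called and 8.72% were called higher. The 2 comparisons share the seizure libraries. Levels of 3 of the 9 genes did not overlap between seizure and wild-type libraries, where 31.4% of all genes did not. Between seizure libraries and Scn1a+/- without seizures, 2 of the 9 did not overlap, against 32.0% of all genes.

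Olfml3 had 19.9, 21.5 and 16.7 CPM in seizure libraries 1, 2 and 3 (numbered in the order of the labels), against 11.8 and 12.8 CPM in Scn1a+/- without seizures and 11.0, 11.2 and 10.8 CPM in wild type. All 3 seizure libraries lay above the other 5. The log2 fold change was 0.82 ± 0.15 against wild type (adjusted p = 7.82e-05) and 0.66 ± 0.17 against Scn1a+/- without seizures (adjusted p = 0.00705). The second call was lost without either of the 2 Scn1a+/- libraries (adjusted p = 0.0887 and 0.0542). Ly86 had 12.6, 15.6 and 9.45 CPM in the seizure libraries, against 8.83 and 9.49 CPM in Scn1a+/- without seizures and 7.92, 9.17 and 8.06 CPM in wild type. Library 3 was close to the other groups and libraries 1 and 2 stood above them. The difference from wild type was 0.58 ± 0.14 (adjusted p = 0.00256), and that from Scn1a+/- without seizures 0.45 ± 0.17 (adjusted p = 0.0621), which became 0.60 (adjusted p = 0.00572) without library 3. Without library 2 the difference of Ly86 from wild type was the smallest of the leave-one-out values, 0.40 (adjusted p = 0.0484).

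Fcrls had 31.6, 27.8 and 21.8 CPM in the seizure libraries, against 20.5 and 26.4 CPM in Scn1a+/- without seizures and 18.6, 21.0 and 20.6 CPM in wild type. It overlapped the Scn1a+/- group but not the wild type. The difference was 0.43 ± 0.11 from wild type (adjusted p = 0.00449) and 0.20 ± 0.13 from Scn1a+/- without seizures (adjusted p = 0.348). Without library 1 the first became 0.29 (adjusted p = 0.0695). With only the libraries of the 2 groups compared in the fit, Fcrls (adjusted p = 0.0669) and Ly86 (adjusted p = 0.0609) did not pass and Olfml3 did.

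P2ry12 had 53.6, 57.5 and 36.9 CPM in the seizure libraries, against 59.8 and 60.0 CPM in Scn1a+/- without seizures and 49.1, 52.8 and 49.4 CPM in wild type. Its difference was −0.032 ± 0.098 from wild type (adjusted p = 0.856) and −0.28 ± 0.11 from Scn1a+/- without seizures (adjusted p = 0.0835), which passed without library 1 (−0.35, adjusted p = 0.0345) or library 2 (−0.40, adjusted p = 0.00752). Siglech had 21.7, 23.6 and 14.2 CPM in the seizure libraries, against 22.8 and 24.4 CPM in Scn1a+/- without seizures and 20.0, 21.8 and 21.6 CPM in wild type. Its difference from Scn1a+/- without seizures was −0.25 ± 0.14 (adjusted p = 0.236), and passed without library 2 (−0.39, adjusted p = 0.0459). Library 3 was the lowest of the 3 seizure libraries for 8 of the 9 genes, and the lowest of all 25 libraries for P2ry12 and Siglech. Its sum of the 20 further homeostatic genes was 335 CPM, against 421 and 446 CPM in libraries 1 and 2, its sum of 14 complement and phagocytic genes 319 CPM, against 405 and 413 CPM, and its sum of 7 neuronal markers 5896 CPM, against 4979 and 4414 CPM. Library 3 was also the highest for 12 transcription factors listed for microglia (611 CPM, against 534 and 584) and for 7 vascular markers (180 CPM, against 133 and 170). It was the lowest for 6 astrocyte markers (7682 CPM, against 7962 and 8728) and 6 oligodendrocyte markers (9349 CPM, against 10290 and 15180). Most of the transcription factor sum, 576 CPM on average in the seizure group, came from Mef2a (191.5 CPM), Mef2c (150 CPM) and Bhlhe41 (115 CPM), while Spi1 gave 4.94 CPM. The part of cell composition in these values was not tested.

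The remaining members stayed within 0.17 of wild type on the log2 scale in the seizure group. Csf1r had 109, 111 and 106 CPM in the seizure libraries, against 105, 111 and 104 CPM in wild type, a difference of 0.025 ± 0.060. Cx3cr1 differed by 0.065 ± 0.076, Mpeg1 by −0.016 ± 0.12 and Tmem119 by 0.17 ± 0.086 (adjusted p = 0.166 to 0.945). Of the 20 further homeostatic genes, 4 were higher and 1 lower than in wild type, 25.0% of the list and near the 22.5% of all genes, with Rgs10 (0.48 ± 0.10) and P2ry6 (0.47 ± 0.16) higher and Crybb1 lower (−0.51 ± 0.18). Of 14 complement and phagocytic genes, 8 were higher and 1 lower (64.3%), with C1qb (0.63 ± 0.096) and the Fc receptor Fcgr2b (1.10 ± 0.17) higher and the receptor kinase Mertk lower (−0.58 ± 0.095). Of 13 activation genes tested, 4 were higher and 2 lower (46.2%), with Gpnmb at 21.8 ± 3.63 CPM in the seizure group and 3.51 CPM in wild type. Of 12 transcription factors, 2 were higher (16.7%, under the 22.5% of all genes), Bhlhe41 (1.26 ± 0.084) and Runx1 (0.95 ± 0.28). In the seizure group Bhlhe41 averaged 115 CPM and Runx1 2.63 ± 0.75 CPM (SD, n = 3). Which cells these reads came from was not tested. Of the 13 genes of ligands and partners, 1 was higher and 2 lower (23.1%, near the 22.5% of all genes). Smad3 was higher (0.79 ± 0.096, edgeR adjusted p = 1.46e-07). Il34 was lower (−0.59 ± 0.094, adjusted p = 1.5e-05), as was Nrros (−0.51 ± 0.13, adjusted p = 0.00292), which anchors latent TGF-beta on microglia. Border macrophage markers, 0 of 9 called by edgeR against wild type, summed to 31.4 to 35.3 CPM in the seizure group and 30.1 to 35.6 CPM in wild type, mostly through Stab1. Against Scn1a+/- without seizures, 0 of the 20 further homeostatic genes were called, where 15.7% of all genes were. Rgs10 had an edgeR adjusted p of 0.101 and P2ry6 of 0.117. Complement and phagocytic genes had 3 higher and 1 lower (28.6%), and activation genes 4 and 1 (38.5%). Bhlhe41, Cebpa, Smad3 and Cd163 were called higher. Among ligands and partners Il34, Cd180 and Tgfbr1 were lower, and Nrros was not called.

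Scn1a+/- without seizures did not differ from wild type beyond the test's threshold in any strain or age, for 0 of 9 genes by edgeR and 0 by DESeq2, and 0.0% of all genes were called in each of the 4 comparisons. Scn1a, the targeted gene, passed in none either (edgeR adjusted p = 0.833 in P24 F1, 0.414 in P24 129S6 and 0.994 in P14 F1). Its libraries did not overlap between genotypes in any of the 4. The lack of calls among the 9 genes therefore does not show a lack of difference. Without the seizure libraries in the fit, 200 of all genes but still 0 of the 9 were called in P24 F1. In P24 F1 all 9 genes lay above wild type, by 0.073 to 0.25 on the log2 scale, and 5 did not overlap between the 2 Scn1a+/- and the 3 wild-type libraries. Of all genes, 49.1% had the higher mean in Scn1a+/-, and 29.1% did not overlap between these libraries, of which those higher in Scn1a+/- made up 14.3% of all genes. The smallest unadjusted p, 0.0309, was that of P2ry12 (0.25 ± 0.11, adjusted p = 0.833), and 1 of 9 genes was under 0.05 unadjusted, with 889 of all 15912 genes. In P24 129S6 the differences, labelled Scn1a+/- minus labelled wild type, ran from −0.088 to 0.14, and they turn their sign if the genotype is read from the names of the deposited files. At P14 they ran from −0.088 to 0.18 in F1 and from −0.16 to 0.16 in 129S6. In these 3 comparisons 0 of the 9 genes had an unadjusted p under 0.05, against 471, 724 and 391 of all genes in P24 129S6, P14 F1 and P14 129S6.

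Over the 25 libraries, Pearson's r of log2 CPM between the 4 strain-dependent genes was 0.615 to 0.952 (median 0.853), the highest between Olfml3 and Ly86. These 4 were set apart by their strain difference in the same libraries, so a high r between them follows from that choice. Among P2ry12, Tmem119, Cx3cr1 and Csf1r it was 0.428 to 0.772, and between Siglech and each of these 4 −0.097 to 0.221. Between the 2 sets it was −0.438 (Mpeg1 and P2ry12) to 0.739 (Fcrls and Csf1r). With the mean of each group removed, r within the first set ran from −0.329 to 0.653. The medians were then 0.14 within the first set, 0.384 within the second and 0.348 between them, and P2ry12 and Siglech had the highest single value, 0.762. These values describe libraries that share groups, depth and composition.

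**Figure D4:**
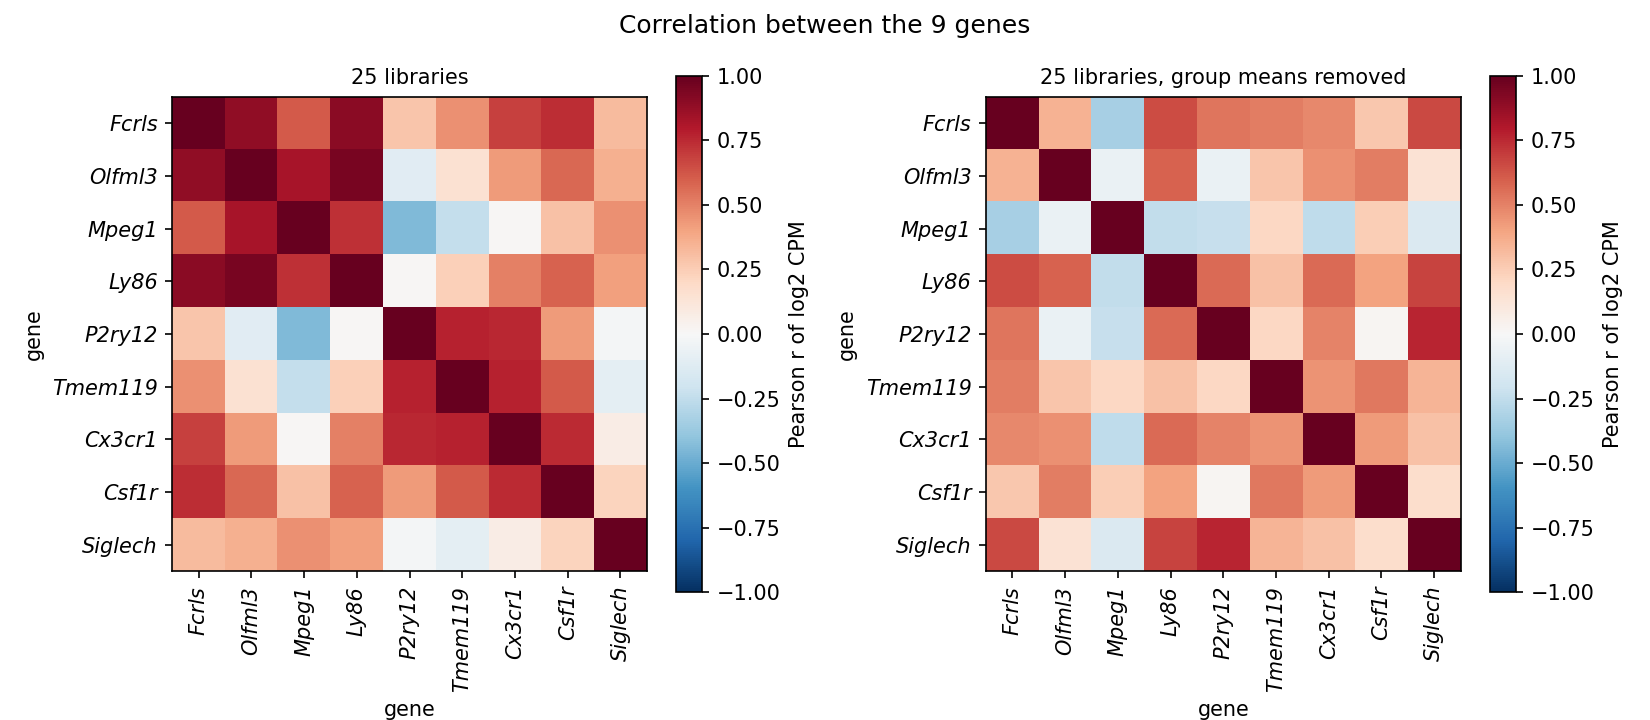
Pearson's r of log2 CPM between each pair of the 9 genes (colour, −1 to 1; both axes list the genes), over the 25 libraries as they are (left) and after the mean of each group was removed (right). Olfml3 and Ly86 reach 0.952 on the left, and Siglech stands apart from P2ry12 there (−0.021) but not on the right (0.762).

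Likeness was computed for 14508 genes whose mean log2 CPM was 0 or more. The gene whose pattern over the 25 libraries was most like the mean of the 5 other genes was Cst3 (cystatin C, r = 0.949), followed by Ctnnbip1 (0.938), Pon2 (0.931), Ilk (0.931) and Ivns1abp (0.928). Hopx, D430019H16Rik, Klhl5, Zfand2a and Cdk16 followed at 0.913 to 0.925. Cst3 fell with age by 0.32 on the log2 scale in F1 and by 0.41 in 129S6 (edgeR adjusted p = 5.74e-05 and 1.92e-06), and did not pass between strains. The genes most like Fcrls were Fabp5 (r = 0.967), Rplp0 (0.963) and Pttg1 (0.948), and those most like Olfml3 were Rpl3 (0.951), Rpl29 (0.947) and Hspb8 (0.944). Ly86 was most like Ccdc88c (0.907), Rpl29 (0.906) and Rpl3 (0.897), and Mpeg1 most like Stxbp2 (0.916), Tagap1 (0.915) and Hspb8 (0.914). These are genes with strain differences of their own. They were picked for likeness to genes set apart by strain in the same libraries, so such differences follow from that choice. Rpl3 differed by 3.45 at P14 and 3.59 at P24 and Rpl29 by 4.03 and 4.08 on the log2 scale (F1 minus 129S6), and neither passed for age in F1 or for the seizure group against wild type.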

How the data were processed

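Per the labels' protocols, frozen hippocampi were extracted with TRIzol and libraries made with TruSeq RNA Library Preparation Kit v2, which does not mark strand. The authors deposited raw read counts per gene symbol and library. Per the submitters' processing notes, the tools included TopHat2 2.1.0 and HTSeq 0.6.1p1, with CASAVA, on mm10. Neither the annotation nor the strand setting is given in the sources used here. A deposited table of normalized values was not used.

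The model was fitted in R 4.3.3 with limma 3.58.1 and edgeR 4.0.16: TMM normalization, filterByExpr (minimum count 10), 1 quasi-likelihood model with 9 group coefficients over 25 libraries, and Benjamini-Hochberg adjustment over 15912 genes. The common coefficient of biological variation was 7.57%. SEs are the log2 fold change over the square root of F. CPM were computed on effective library sizes, and log2 CPM used a prior count of 2. The fit was tested on simulated data. Groups follow titles and characteristics. Strain and age comparisons leave out the seizure group. Alternatives were DESeq2 1.42.0, RLE normalization, no filter, other sets of libraries, wild-type groups alone, genotype by file name, and leaving out each library. Coordinates and promoters come from RefSeq tables of GRCm38.p6, and exonic lengths from GENCODE vM39, where Fcrls was not matched by symbol.

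The members, gene lists and tests were chosen with earlier results of these data known. All 9 members are described. Of other lists, up to 4 called genes with the smallest adjusted p per comparison could be named, or 2 where none was called, and not all of these are reported here. Genes most like the members are the 10 (for the second set) or 3 (for each strain-dependent gene) with the highest r. Genes tested within 1000000 bases of a member are named where called in the same direction at both ages.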

Additional observations from a re-analysis of the deposited data

How the results depend on the processing

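No call turned its direction under any alternative. Of the log2 fold changes recomputed for the 9 genes, 1400 kept their side of the threshold, 10 lost a call and 12 gained one. Of the counts of genes called, 2 comparisons moved by over 1.5 times. For the seizure group against wild type, 3 of 9 genes were called, and 1, Olfml3, with only the libraries of the groups compared in the fit. For the seizure group against Scn1a+/- without seizures, 1 of 9 was called, and 2 with no low-count filter, where P2ry12 was lower (adjusted p = 0.0349). Leaving out each library in turn gave 0 to 3 calls in that comparison, 0 without either of the 2 Scn1a+/- libraries, 2 without seizure library 1 or 3, and 3 without seizure library 2. Where an arm was left with 1 library, it was assumed to vary like the other groups. Other changed calls concern the strain difference of Cx3cr1 at P24, which passed with only the groups compared (adjusted p = 0.0306) and without 1 P24 F1 wild-type library (adjusted p = 0.0468), and that of Siglech (adjusted p = 0.0288 with only the groups compared). The age difference of Siglech in F1 passed under the same 2 changes of the libraries in the fit (0.18, adjusted p = 0.0413 with only the groups compared and 0.0423 without the seizure libraries). The causes were not tested. The strain differences of Fcrls, Olfml3 and Mpeg1 passed under every alternative run. No paired analysis was possible because the numbers in the titles run over the whole series and the groups share none. Groups of 2 or 3 libraries were not tested for outlying samples.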
